A study of Mus musculus with 20 samples.

Results

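Of the 124679 CTCF sites whose RNA reads were counted in SIMS cells, a mouse salivary gland line, 95986 (77.0%) had no count in any of 3 wild-type libraries. These silent sites were followed into edited cells that had no part in choosing them. Of the 95986 sites, 76082 held no count in any of the 19 libraries of the table, and 19904 (20.7%) held at least 1 count in the 16 edited libraries. Summed over all silent sites, RNA was higher in each of the 12 Zcchc8 knockout (KO) libraries than in any of the 4 Btbd7 KO libraries, and the mean level was 1.94 times as high. Because the sites were chosen for 0 counts in wild type, their level there is fixed by the choice, and no comparison with the wild-type libraries that chose them was made.

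CTCF is a zinc-finger protein that binds a long DNA motif, stops the cohesin ring as it extrudes chromatin loops, and marks loop anchors and domain borders. Its sites are not transcription units, so reads over them come from RNA that passes through or starts near them: introns, upstream antisense RNA, enhancer RNA or unannotated transcripts. Much of that RNA is short-lived. ZCCHC8 holds together NEXT, the nuclear exosome targeting complex, in which the RNA-binding protein RBM7 and the helicase MTREX hand such transcripts to the RNA exosome for decay. BTBD7 is a BTB-domain protein known from the branching of the salivary gland.

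The groups were unedited wild type, cells with a CRISPR/Cas9 KO of Btbd7, which served as the negative control, and 3 separate Zcchc8 KO clones edited the same way, all grown in DMEM with serum. Each edited group had 4 libraries of total RNA, and the CTCF table held 3 of wild type (replicates 2, 3 and 4). Each Zcchc8 KO clone is 1 cell line grown from 1 edited cell, the labels do not say whether the Btbd7 KO cells are a clone, and nothing says whether replicates came from separate cultures. The 12 Zcchc8 KO libraries thus stand for 3 lines set against 1 control line. The tests measure the spread between libraries, which may be technical. In a test of a single site against Btbd7 KO, what is particular to the control line cannot be told apart from the effect of Zcchc8; for the summed level, held-out wild-type libraries give a second reference.

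The sites carry identifiers of the Ensembl regulatory annotation without coordinates, so their own sequences were not used here. For 2 of them the counts closely followed an annotated row, and the sequence at that row is shown. Site ENSMUSR00000462365 held 107 counts, all in Zcchc8 KO libraries: 2, 5, 5 and 7 in clone 1, 9, 9, 21 and 16 in clone 2, and 8, 3, 5 and 17 in clone 3. In no library did it exceed the PROMPT row of Cstf2t, the region of upstream RNA assigned to that gene, whose 122 counts differed from those of the site by 6.55%. It was closer still to the promoter ENSMUSR00000271032 (99 counts, 3.88%) and the promoter flanking region ENSMUSR00000741228 (117 counts, 4.46%), which carry no coordinates either, so the PROMPT row was the only one of the 3 with a sequence to show. No count of the site fell in Btbd7 KO, where the PROMPT row held 2 counts in replicate 2 and none elsewhere. Cstf2t encodes a cleavage stimulation factor subunit for messenger RNA 3′ ends and is protein-coding on the plus strand of GRCm38 at chr19:31082837-31087069. The 246 bases just upstream of it, chr19:31082591-31082836 (plus strand, GRCm38.p6, RefSeq), are shown 5′ to 3′ in lower case.
Cstf2t upstream: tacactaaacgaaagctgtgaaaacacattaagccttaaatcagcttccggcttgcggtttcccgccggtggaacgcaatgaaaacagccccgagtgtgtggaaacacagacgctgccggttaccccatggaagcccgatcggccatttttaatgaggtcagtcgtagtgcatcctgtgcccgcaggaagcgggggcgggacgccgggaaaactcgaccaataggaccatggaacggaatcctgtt
The letters CCCTC, after which CTCF was named, were searched on both strands and did not occur in this stretch. They occurred in 59.7% of 32851 RefSeq promoter windows of the same length. How far the authors' PROMPT regions reach is not given in the sources used here, and like counts do not place the site in this stretch.

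Site ENSMUSR00000541927 held 28 counts and equalled the row of the gene Gm37153 in every library except Btbd7 KO replicate 1, where the site held 3 counts and the gene none. The site held 5, 1, 0 and 2 counts in clone 1, 4, 3, 3 and 6 in clone 2, and 0, 0, 0 and 1 in clone 3. Gm37153 is a short model of type TEC (not yet backed by experiment) on the plus strand of GRCm38 at chr5:8997159-8997389 in GENCODE M21. Its 231 bases are shown because, among silent sites with at least 20 counts, this was the 1 site within 7% of a row of the gene table (5.66%), with capitals for GAGGG, which reads CCCTC on the other strand.
Gm37153: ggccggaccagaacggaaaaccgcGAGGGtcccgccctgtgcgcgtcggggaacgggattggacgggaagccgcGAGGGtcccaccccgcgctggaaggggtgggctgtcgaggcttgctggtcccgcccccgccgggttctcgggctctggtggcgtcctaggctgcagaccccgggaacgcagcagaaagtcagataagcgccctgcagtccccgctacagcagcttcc
The letters occurred 2 times on the minus strand and not on the plus strand. Of the 32851 promoter windows cut to this length, 57.4% held them at least 1 time on either strand, so most of these windows hold the letters. The share of windows with 2 matches was not counted.

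Depth and identity of the libraries bear on every value that follows. The gene table, which set the scale, held 6833258 to 17771804 counts per library. Zcchc8 RNA stood at 62.2 ± 3.84 CPM (counts in relation to 1000000 gene counts; SD, n = 4) in Btbd7 KO, 60.8 ± 4.19 in clone 1, 23.6 ± 1.40 in clone 2 and 54.5 ± 4.83 in clone 3, so only clone 2 was far below the control. An edit need not lower a gene's RNA, and these levels do not check the label of clones 1 and 3. Btbd7 RNA was 99.0 ± 3.61 CPM in Btbd7 KO and 198 ± 6.25 (n = 3) in wild type. All 8 epithelial markers were expressed in every library, with sums of 4434 to 4524 CPM in Btbd7 KO and 3190 to 4103 in Zcchc8 KO. Of 4 salivary acinar markers, Aqp5 reached 109 to 183 CPM, while Smgc was at 0 throughout and Amy1 and Bhlha15 stayed at or below 2.13. Summed mesenchymal markers (Col1a1, Col1a2, Pdgfra, Acta2) were at 16.7 to 26.1 CPM in Btbd7 KO, 9.93 to 13.6 in clone 1, 24.8 to 28.4 in clone 2 and 21.04 to 25.03 in clone 3, so the sum did not move one way with the KO. Col1a1 made up most of it. Means of Col1a2 were lower in each clone (0.739, 1.49 and 0.901 CPM) than in Btbd7 KO (2.36), with wild type at 0.654. Those of Pdgfra were lower too (0.0645, 0.122 and 0 against 0.538), while Acta2 stayed at or below 0.146. Endothelial and blood markers (Pecam1, Cdh5, Ptprc) summed to at most 1.16 CPM. The part of these differences in the results was not tested. Library 4 of clone 1 held more RNA over wild-type-silent rows of all 8 row classes than the other Zcchc8 KO libraries did, and Btbd7 KO replicate 1 stood above the other 3 controls, so values are given with and without them where they move.

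The summed level of the silent sites was 440, 342, 347 and 352 CPM in Btbd7 KO replicates 1 to 4 (mean 370 ± 46.4). It was 655, 689, 674 and 1133 CPM in clone 1 (788 ± 230), and 673 ± 17.1 without replicate 4. Clone 2 gave 696, 651, 715 and 626 CPM (672 ± 41.0). Clone 3 gave 673, 624, 757 and 710 CPM (691 ± 56.3). The lowest Zcchc8 KO library (624) thus lay above the highest Btbd7 KO library (440), and clones 2 and 3, and clone 1 without replicate 4, did not differ beyond their spread. Over all 12 libraries the mean was 717 CPM, and the ratio to Btbd7 KO was 1.94, or 1.83 without clone 1 replicate 4. CTCF sites that did have wild-type counts were nearly level between the same libraries (42471 against 40241 CPM, a ratio of 1.06). The silent sites' share of all CTCF counts was 0.910% in Btbd7 KO and 1.66% in Zcchc8 KO. The difference did not rest on a few sites: without the 100 richest sites, which held 9.09% of the counts, the ratio was 1.80. In bulk RNA, more cells with some RNA over a site and more RNA per cell cannot be told apart.

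**Figure D1:**
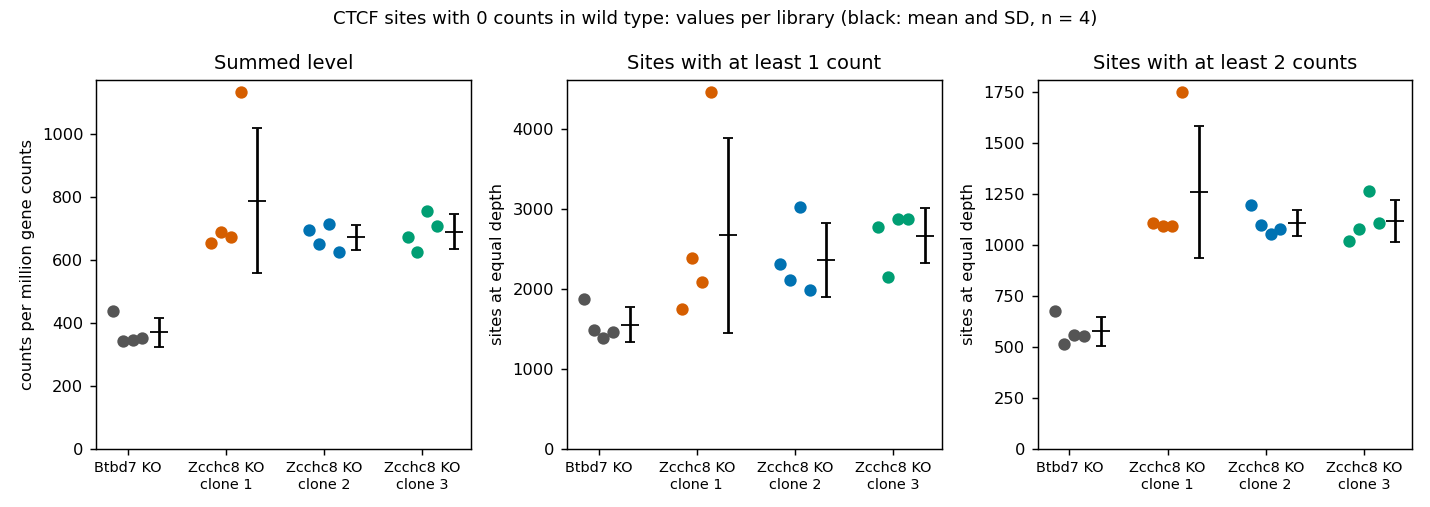
Each point is 1 library, for the CTCF sites with 0 counts in wild type: left, counts summed over the sites in CPM; middle and right, the number of sites with at least 1 or at least 2 counts after every library was scaled down to 6833258 gene counts. Black bars give mean and SD over 4 libraries; the 12 Zcchc8 KO libraries lie above the Btbd7 KO libraries in the left and right panels, while the middle panel has 1 overlap.

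The number of silent sites with a count depends on depth. As deposited, 1544 to 3026 sites were detected in the Btbd7 KO libraries and 1815 to 5039 in the Zcchc8 KO libraries, and these ranges overlap. With every library scaled down by binomial thinning to 6833258 gene counts, Btbd7 KO libraries held 1382 to 1874 of the sites and Zcchc8 KO libraries 1755 to 4466, a ratio of means of 1.65. Clone 1 replicate 1 (1755) stayed below Btbd7 KO replicate 1 (1874). Sites with at least 2 counts at that depth numbered 517 to 677 in Btbd7 KO and 1022 to 1750 in Zcchc8 KO, with no overlap and a ratio of 2.02. Detection by 1 count alone separated the groups less clearly than repeated counts did: between 26.7% (clone 2 replicate 4) and 58.2% (clone 1 replicate 4) of a library's detected sites rested on 1 count.

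A site with 0 counts in a few libraries is expected to gain some in the next library by sampling alone. The wild-type libraries measure how often for sites at 0 in 2 libraries. For the silent sites, at 0 in all 3, no further wild-type library was left to measure it. Each wild-type library was held out in turn, sites were chosen for 0 counts in the remaining ones, and detection was read at equal depth. With replicate 2 held out (99791 sites), 2.53% of the sites had a count in the held-out library, against 2.50% in Btbd7 KO and 3.84%, 3.63% and 4.04% in clones 1, 2 and 3. With replicate 3 held out (98618 sites) the shares were 1.94% in wild type, 2.15% in Btbd7 KO and 3.43%, 3.19% and 3.56% in the clones. With replicate 4 held out (97842 sites) they were 1.45%, 1.96%, and 3.23%, 2.94% and 3.30%. In each case every Zcchc8 KO library exceeded the unseen wild-type library, the lowest ones at 2.72%, 2.37% and 2.21%. Btbd7 KO libraries lay on both sides of it for replicate 2 (from 2.27%), just above it for replicate 3 (from 1.95%) and above it for replicate 4 (from 1.77%). Over the 3 choices, the summed level averaged 560 ± 105 CPM in held-out wild type, 555 ± 90.0 in Btbd7 KO, and 1112 ± 151, 989 ± 145 and 1022 ± 156 in the clones. By summed level, Btbd7 KO thus lay within the spread of unseen wild-type libraries and the clones lay above it. The 3 choices share most of their sites and libraries, so these SDs describe the wild-type libraries and are not errors of independent repeats.

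**Figure D2:**
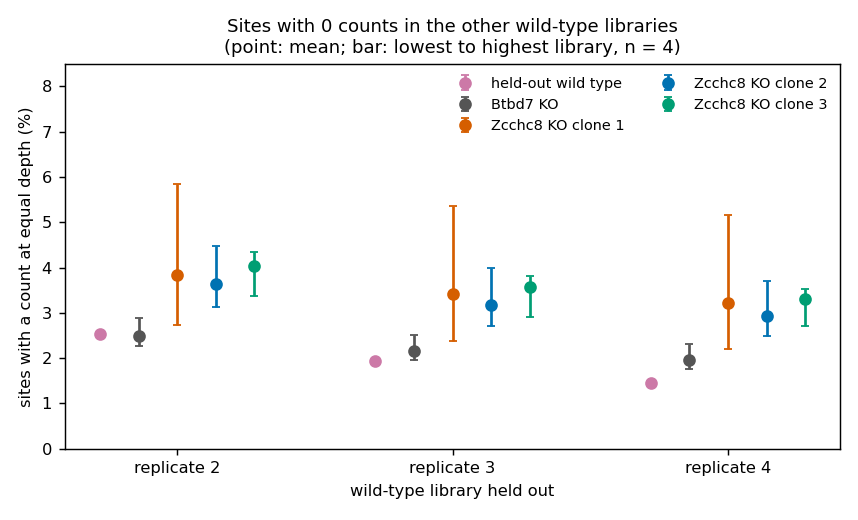
The vertical axis is the percent of sites with at least 1 count at equal depth, for sites with 0 counts in the other wild-type libraries; the horizontal axis is the wild-type library held out. Points are means over 4 libraries with bars from the lowest to the highest (held-out wild type is 1 library); wild type at 1.45% to 2.53% lies near Btbd7 KO, and the means of the clones lie at 2.94% to 4.04%.

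The ratio between the groups changed little across the cutoff at 0, while the level did not. Sites just outside it, with 1 wild-type count in all (2474 sites), stood at 109 ± 3.91 CPM in Btbd7 KO and 203 CPM in Zcchc8 KO, a ratio of 1.86. The ratio was 1.72 for the 1959 sites with 2 counts, 1.70 for the 4094 sites with 3 to 5, 1.48 for the 9037 sites with 6 to 20, and 1.02 for the 11129 sites with over 20. In each of these classes up to 20 counts the Zcchc8 KO libraries lay above all Btbd7 KO libraries. Per 1000 sites, Btbd7 KO held 3.86 CPM at silent sites and 44.1 CPM at sites with 1 wild-type count. The difference per 1000 sites between Zcchc8 KO and Btbd7 KO was 3.61 CPM for silent sites, 37.9 CPM at 1 count, 44.1 at 2, 62.3 at 3 to 5, 111 at 6 to 20 and 71.5 above 20. With all libraries, silent sites had the largest ratio of the 6 classes and the smallest difference per site. The rank of the ratio was not firm. Without clone 1 replicate 4 the ratio of silent sites was 1.83, and without Btbd7 KO replicate 1 as well it was 1.96. The other classes were not recomputed without these libraries. These values describe the rule and the classes next to it, with no test.

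**Figure D3:**
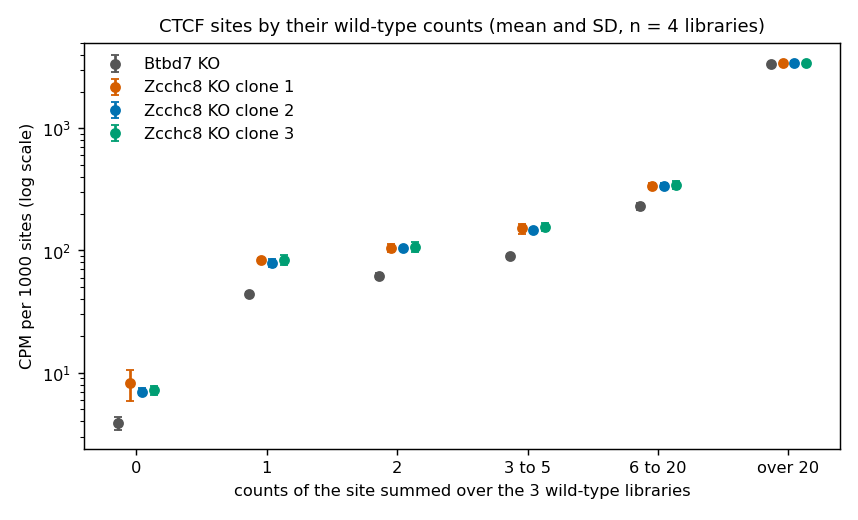
The level of CTCF sites per 1000 sites (CPM, log scale) is plotted by the sites' counts summed over the 3 wild-type libraries, with mean and SD over 4 libraries per edited group. The 3 clones lie above Btbd7 KO by 1.94 times at 0 wild-type counts and 1.02 times above 20 counts.

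Recurrence within a group told the groups apart more than detection in single libraries did. In Btbd7 KO, 5225 silent sites had counts in 1 of 4 libraries, 1140 in 2, 346 in 3 and 89 in all 4. In clone 1 the numbers were 6448, 1208, 436 and 247, in clone 2 5768, 1641, 711 and 391, and in clone 3 6021, 1766, 834 and 421. Sites seen in 1 library differed by at most 1.23 times from Btbd7 KO, while sites seen in all 4 were 2.78, 4.39 and 4.73 times as many. The libraries of clone 1 are shallower, and at equal depth 37.4 sites would be seen in all 4 Btbd7 KO libraries against 232, 246 and 271 in the clones. These equal-depth numbers are 6.22, 6.58 and 7.24 times the control. The sites that recurred were partly shared by the clones: 114 were in the lists of clones 1 and 2 (46.2% of the list of clone 1 and 29.2% of that of clone 2), 117 in those of clones 1 and 3 (47.4% and 27.8%) and 153 in those of clones 2 and 3 (39.1% and 36.3%). The Btbd7 KO list shared 7, 20 and 20 of its 89 sites with the 3 clones (7.87%, 22.5% and 22.5%). As shares of all silent sites, the lists held 0.0927% in Btbd7 KO and 0.257%, 0.407% and 0.439% in clones 1, 2 and 3. More recurrence was not particular to silent sites. At sites with 1 wild-type count in all, 67 recurred in all 4 Btbd7 KO libraries against 122, 190 and 202 in the clones. At sites with over 20 wild-type counts the numbers were 9922 against 9235, 10140 and 10347.

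**Figure D4:**
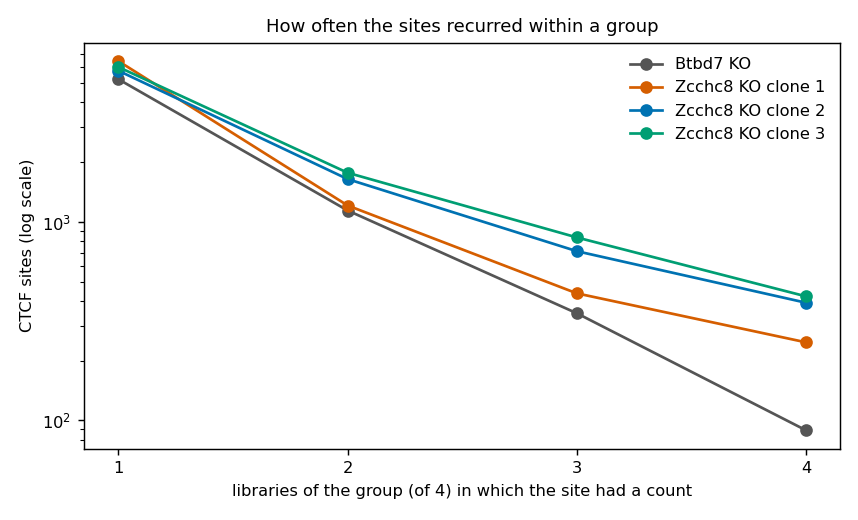
The number of silent CTCF sites (log scale) is plotted by the number of libraries of the group, of 4, in which the site had a count, at deposited depth. The lines start close together at 5225 to 6448 sites and end apart, at 89 sites in Btbd7 KO and 247 to 421 in the clones.

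Of all silent sites, 80 had counts in each of the 12 Zcchc8 KO libraries. Of these, 23 held none in Btbd7 KO, and 52 of all 124679 CTCF sites (0.0417%) met that rule, and 3 held counts in all 16 edited libraries. The 3 were ENSMUSR00000569600, with 12 counts in Btbd7 KO and 47 in Zcchc8 KO, ENSMUSR00000687991 (7 and 70) and ENSMUSR00000707676 (10 and 68). At each of the 3, Btbd7 KO libraries held 1 to 5 counts and the counts of Btbd7 KO and Zcchc8 KO overlapped. In the other direction, 4 sites had counts in all 4 Btbd7 KO libraries and none in Zcchc8 KO, against 5 of all 124679 CTCF sites (0.00401%). The lowest Zcchc8 KO library stood above the highest Btbd7 KO library at 42 silent sites, against 0.409% of all sites (510), and the reverse held at 6, against 0.103% (128). As shares of the 95986 silent sites these counts were 0.0240%, 0.00417%, 0.0438% and 0.00625%, at or below the share over the table in each case but the second, where 4 of the 5 sites were silent ones.

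Single sites were tested with edgeR on the whole table. Only 114 of the 95986 silent sites (0.119%) passed the filter on low counts, all through counts in edited groups, so the share called among them is no measure of the silent sites. For the mean of the clones against Btbd7 KO, 62 were higher and 2 lower at an adjusted p under 0.05, with 7.84% of the 13122 tested CTCF sites higher and 2.65% lower. In the separate clones 55, 55 and 50 were higher (background 6.9%, 6.27% and 6.2%) and 3, 2 and 2 lower (2.44%, 1.68% and 1.52%), and 34 were higher for the mean and in each clone (background 3.77%). The 3 clone contrasts share the Btbd7 KO libraries. When every site with at least 1 count was tested, 85 of 19904 silent sites were higher (0.427%, background 1.8%) and 6 lower (0.0301%, background 0.562%). Scaled within the CTCF table, 50 were higher and 2 lower. That scaling moved the median log2 change of all tested CTCF sites from 0.19 to -0.04 and the calls over all sites from 1029 higher and 348 lower to 736 and 836. Of the 62 higher sites, 26 had no count in Btbd7 KO, 17 had 1 to 3 and 19 had more, and 44 had counts in all 12 Zcchc8 KO libraries. The 26 passed the filter through Zcchc8 KO counts alone, so a call could only be higher and its direction is no evidence. The split of 62 against 2 is therefore partly fixed by the filter. The pooled Zcchc8 KO level of the 62 sites was 0.339 to 2.94 CPM with a median of 0.768, which is low beside genes such as Ctcf.

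The richest silent site, ENSMUSR00000679218, had 6, 3, 0 and 0 counts in Btbd7 KO. In Zcchc8 KO it had 23, 29, 44 and 22 counts in clone 1, 12, 46, 47 and 40 in clone 2 and 28, 19, 20 and 43 in clone 3. All 12 libraries were above all 4 controls, and the pooled level was 16.9 times as high (exact 95% interval 8.78 to 37.2, counting error only; edgeR adjusted p = 1.35e-11). ENSMUSR00000626863 had 4 counts in Btbd7 KO, all in replicate 2, and 9 to 41 in each Zcchc8 KO library (29.1-fold, interval 11.2 to 107). ENSMUSR00000693894 had 0, 3, 3 and 2 counts in Btbd7 KO and 9 to 34 in Zcchc8 KO (12.3-fold, interval 6.12 to 28.7). ENSMUSR00000733605 had 1, 1, 3 and 0 counts against 2 to 31, the low end in clone 2 replicate 1 (18.1-fold, interval 7.62 to 56.2). At this site the groups overlapped, with Btbd7 KO replicate 3 at 0.370 CPM and clone 2 replicate 1 at 0.277. These 3 sites passed the edgeR test for the mean and for each clone, as the richest one did. The 8 richest sites were picked by counts summed over the 16 edited libraries, of which 12 were Zcchc8 KO. The choice thus favours high counts in Zcchc8 KO, and the folds and tests describe these sites only.

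ENSMUSR00000301866 was the rich site with the smallest ratio. Its counts were 1, 7, 2 and 0 in Btbd7 KO, 6, 6, 11 and 9 in clone 1, 5, 22, 34 and 6 in clone 2, and 25, 15, 13 and 18 in clone 3. Counts of Btbd7 KO and Zcchc8 KO overlapped here too, and the pooled level was 6.91 times as high (interval 3.67 to 14.7; edgeR adjusted p = 0.000595). In contrast, the last 2 of the 8 richest sites were almost empty in the control. ENSMUSR00000618050 had 2 counts in Btbd7 KO, both in replicate 4, and 4 to 22 in each Zcchc8 KO library (ratio 31.3, interval 8.52 to 261). ENSMUSR00000304139 had 1 count in Btbd7 KO and 2 to 21 in each Zcchc8 KO library (ratio 62.2, interval 11 to 2473), and the width of that interval shows how little 1 count fixes the ratio.

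**Figure D5:**
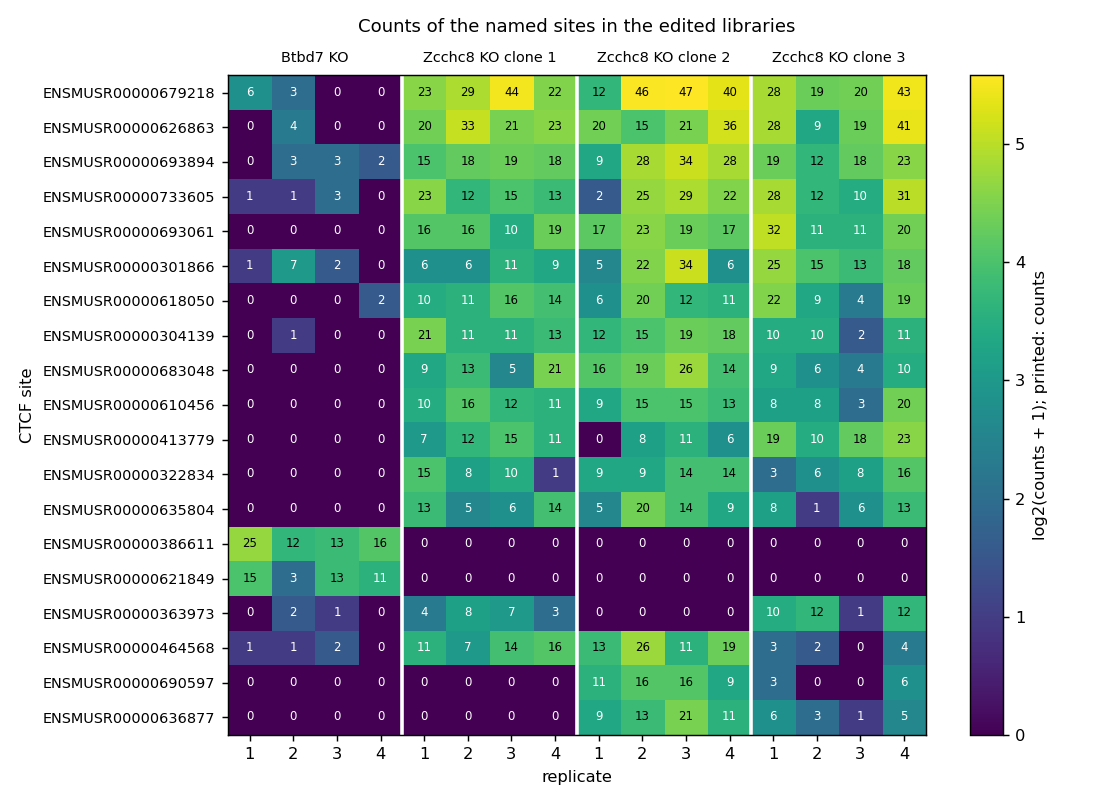
Each row is 1 silent CTCF site named in the text and each column 1 edited library, with the deposited count printed in the cell and colour for log2(counts + 1). The first 13 rows are filled in nearly every Zcchc8 KO library and hold 0 to 7 counts per library in Btbd7 KO, 2 rows are filled in Btbd7 KO only, and the last 4 differ among the clones.

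The largest log2 changes belonged to sites without any Btbd7 KO count, where the ratio is a bound against 3 counts over the 4 control libraries (0.0581 CPM). ENSMUSR00000693061 had 16, 16, 10 and 19 counts in clone 1, 17, 23, 19 and 17 in clone 2 and 32, 11, 11 and 20 in clone 3. Its 1.66 CPM were at least 28.6-fold higher than Btbd7 KO (edgeR adjusted p = 1.13e-10), and no library of Zcchc8 KO fell under 10 counts. ENSMUSR00000683048 had 5 to 21 counts in clone 1, 14 to 26 in clone 2 and 4 to 10 in clone 3 (at least 20.6-fold higher). ENSMUSR00000610456 had 10 to 16, 9 to 15 and 3 to 20 counts (at least 19-fold higher). The 3 sites had counts in all 12 Zcchc8 KO libraries and none in the 7 others.

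ENSMUSR00000413779 reached the same pooled bound (at least 19-fold higher) with an uneven pattern. It had 7 to 15 counts in clone 1 and 10 to 23 in clone 3, but 0, 8, 11 and 6 in clone 2. ENSMUSR00000635804 had 1 to 20 counts per Zcchc8 KO library (at least 15.5-fold higher) and ENSMUSR00000322834 1 to 16 (at least 15.3-fold higher). These 6 sites were picked by their fold from those called higher for the mean and in every clone, so their calls are fixed by the choice. For ENSMUSR00000462365, the site that followed the PROMPT row of Cstf2t, the level was at least 14.5-fold higher (edgeR adjusted p = 5.09e-05). It too passed the filter through Zcchc8 KO counts alone, so a call could only be higher and its direction is no evidence.

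Both sites called lower were present in Btbd7 KO only. They passed the filter through their Btbd7 KO counts alone, so a call could only be lower and its direction is no evidence. ENSMUSR00000386611 had 25, 12, 13 and 16 counts in Btbd7 KO and none in any other library of the table, wild type included. It was at least 54.1-fold lower in Zcchc8 KO (edgeR adjusted p = 1.21e-07), measured against a floor of 3 counts over 12 libraries (0.0236 CPM). ENSMUSR00000621849 had 15, 3, 13 and 11 counts and again none elsewhere (at least 34.4-fold lower; edgeR adjusted p = 1.64e-05, DESeq2 adjusted p = 0.389). The promoter flanking region with the neighbouring identifier ENSMUSR00000621848 had 69, 36, 39 and 55 counts in Btbd7 KO and none elsewhere. The enhancer ENSMUSR00000623818 had 9, 6, 14 and 14 counts in Btbd7 KO and none elsewhere, and no further row of the 8 tables had this pattern with at least 40 counts. The wild-type 0 of the CTCF sites is fixed by the rule that chose them, and the other 2 rows were picked for this pattern, so it is a description. The 2 further silent CTCF sites with counts in all 4 Btbd7 KO libraries and none elsewhere, ENSMUSR00000385699 and ENSMUSR00000693232, held 11 and 8 counts.

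The clones differed from one another at 5 silent sites in the joint edgeR test (background 2.19% of 13122 sites). ENSMUSR00000363973 had 4, 8, 7 and 3 counts in clone 1 and 10, 12, 1 and 12 in clone 3, but none in clone 2, and 0, 2, 1 and 0 in Btbd7 KO (edgeR adjusted p = 0.0186). ENSMUSR00000464568 had 11, 7, 14 and 16 counts in clone 1 and 13, 26, 11 and 19 in clone 2, but 3, 2, 0 and 4 in clone 3, close to the 1, 1, 2 and 0 of Btbd7 KO (edgeR adjusted p = 0.0195). The other 3 were highest in clone 2, the clone with the least Zcchc8 RNA, and whether that RNA level bears on them was not tested. ENSMUSR00000690597 had 11, 16, 16 and 9 counts in clone 2, none in clone 1 or Btbd7 KO, and 3, 0, 0 and 6 in clone 3 (edgeR adjusted p = 0.0293). ENSMUSR00000636877 had 9, 13, 21 and 11 counts in clone 2, none in clone 1 or Btbd7 KO, and 6, 3, 1 and 5 in clone 3 (edgeR adjusted p = 0.0330). ENSMUSR00000690598, whose identifier follows that of ENSMUSR00000690597, had 5, 19, 34 and 31 counts in clone 2, 3, 0, 0 and 1 in clone 1, and 1, 4, 5 and 7 in clone 3 (edgeR adjusted p = 0.0436). The calls depended on single libraries: leaving out 1 library at a time left 0 to 6 such sites, and none without clone 2 replicate 2, when 79 silent sites passed the filter in place of 114.

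Sites found in 1 clone only were rare. Clone 3 had 9 silent sites with counts in all 4 of its libraries and none in the other 12 edited libraries, against 10 of all 124679 CTCF sites (0.00802%). Clones 1 and 2 had 0 such sites. Among the 9, ENSMUSR00000489390 held 10, 13, 4 and 5 counts, and the other 8 held 6 to 9 counts in all. One site went down in a single clone: ENSMUSR00000456008 had 9, 9, 3 and 5 counts in Btbd7 KO, 9, 12, 13 and 5 in clone 2 and 1 to 4 in clone 3, but 0 in all of clone 1 (edgeR adjusted p = 0.0224 for clone 1, and 0.0522 for the joint test of the clones).

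Rows without wild-type counts in the other tables were also higher in Zcchc8 KO. The ratio of summed levels was 1.92 for 50305 enhancers, 1.90 for open chromatin regions, 1.86 for promoter flanking regions, 1.88 for promoters, 1.96 for transcription factor binding sites and 1.82 for genes. For 29971 silent PROMPT regions it was 2.64. The 1.94 of CTCF sites was therefore close to that of the other regulatory classes, and nothing in these ratios is particular to CTCF sites. The tables overlap in reads. Of 1090 silent CTCF sites with at least 20 counts, 20 had in all 19 libraries exactly the counts of a row in another table (9 open chromatin regions, 9 promoter flanking regions, 1 promoter and 1 transcription factor binding site), and 60, these 20 included, differed from such a row by at most 7%. ENSMUSR00000683048, described among the sites empty in Btbd7 KO, was 1 of the 60: it never exceeded the promoter flanking region ENSMUSR00000211598, whose 170 counts differed from those of the site by 5.59%.

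RNA of CTCF itself did not pass the test, and that of its partners moved in both directions. Of 14 listed genes 13 were tested, 4 were higher and 1 lower, while 23.8% of 15547 genes were higher and 25.1% lower. The median log2 change of the list was 0.03 against 0.00 for all genes. Ctcf stood at 138 ± 3.04 CPM in Btbd7 KO and at 127 ± 10.3, 133 ± 9.68 and 134 ± 3.69 in the clones (log2 change -0.07 ± 0.05 SE, edgeR adjusted p = 0.21). Ctcfl, its paralogue of the germ line, stayed at or below 0.144 CPM. The genes higher than in Btbd7 KO were Yy1, a looping factor (log2 change 0.54), and Stag2, a cohesin subunit (0.28). The cohesin loaders Mau2 (0.20) and Nipbl (0.11) were higher too. Wild-type means also lay above Btbd7 KO: 145 against 109 CPM for Yy1 and 322 against 285 for Stag2. For Mau2 they were 305.7 against 291.9 and for Nipbl 342 against 296. In clones 1, 2 and 3 Yy1 stood at 177, 146 and 156 CPM and Nipbl at 337, 325 and 298. The part of the control line in these differences was not tested. Smc3, a core subunit of the cohesin ring, was lower by 0.22 on the log2 scale. Not every clone shared these changes. Smc3 was level in clone 2 (log2 change 0.01, edgeR adjusted p = 0.916) and Nipbl in clone 3 (0.008, edgeR adjusted p = 0.91). Mau2 was not called in clone 2 (0.06, edgeR adjusted p = 0.271). Means near 0 hid opposite changes of single clones. Rad21, the ring's kleisin subunit, had a mean log2 change of 0.03 (edgeR adjusted p = 0.574), but was higher in clone 2 (0.19, edgeR adjusted p = 0.000512) and lower in clone 3 (-0.19, edgeR adjusted p = 0.00088). Smc1a, another core subunit of the ring, had a mean log2 change of 0.03 (edgeR adjusted p = 0.739), with 0.38 in clone 2 (edgeR adjusted p = 1.09e-05) and -0.22 in clone 1 (edgeR adjusted p = 0.00884).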

How the data were processed

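Stranded libraries were made from TRIzol-extracted total RNA, per the labels' protocols. FastQC and STAR 2.7.3a are named in the submitters' processing notes. The counter, genome build, strand setting and feature definitions are not given in the sources used here, so reads from overlapping or antisense transcripts cannot be told apart from a site's own. The authors deposited raw read counts per feature, as whole numbers; wild-type replicate 1 is not in the CTCF table used here.

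Counts were tested with edgeR 4.0.16 (R 4.3.3; glmQLFit, glmQLFTest) in 1 fit of 19 libraries and 5 groups, after filterByExpr, with library sizes and TMM factors from the gene table and Benjamini-Hochberg adjustment over all tested sites (threshold 0.05). The script was tested on simulated data. CPM are counts divided by the TMM-scaled gene counts, times 1000000. Equal-depth values are expected values under binomial thinning, computed in closed form. Pooled ratios have exact conditional 95% intervals; with 0 counts, a floor of 3 counts gave a bound. Intervals and floors cover counting error only. Over 27 pairs of replicates, chi-square divided by its degrees of freedom was 2.18 to 6.93, above counting noise, so each library was kept. Gene positions came from GENCODE M21 (GRCm38) and upstream sequence from RefSeq (GRCm38.p6).

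Named sites were the 8 richest, the 6 with the largest log2 change among those higher in each clone with at least 50 Zcchc8 KO counts, those called lower with the lowest change, the 4 with the lowest p in the joint test, and those with counts in all 12 Zcchc8 KO libraries, none in Btbd7 KO and the most counts. Sites named beyond these were chosen after their values were seen. The members and lists were chosen with earlier results of these data known. Alternatives were DESeq2 1.42.0, other filters and scalings, the edited groups alone, the replicate number as a block, and leaving out libraries.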

Additional observations from a re-analysis of the deposited data

Results flagged for a closer look

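A library stood apart from the other 3 of its group (Dixon's 95% rule) in 10 of 92 group values checked. Groups at 0 in every library could not be flagged, and groups with counts in 1 library always were. The share flagged therefore cannot be set against a rate from chance. For the summed level the flagged libraries were Btbd7 KO replicate 1 at 440 CPM and clone 1 replicate 4 at 1133 CPM. Clone 1 replicate 4 was also far above its group for sites with at least 2 counts at equal depth (1750), and clone 3 replicate 2 was below its group for sites with at least 1 count (2154). Among single sites, the lone Btbd7 KO libraries with reads were flagged for ENSMUSR00000626863 (replicate 2, 0.267 CPM), ENSMUSR00000618050 (replicate 4, 0.169 CPM) and ENSMUSR00000304139 (replicate 2, 0.0667 CPM). A library of a clone was apart for ENSMUSR00000693894 (clone 2 replicate 1, 1.246 CPM), ENSMUSR00000693061 (clone 3 replicate 1, 2.27 CPM) and ENSMUSR00000304139 (clone 1 replicate 1, 2.75 CPM). These single-site flags rest on few counts.

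The clones differed in the joint edgeR test of 3 clones at ENSMUSR00000363973 (adjusted p = 0.0186), ENSMUSR00000464568 (0.0195), ENSMUSR00000690597 (0.0293), ENSMUSR00000636877 (0.033) and ENSMUSR00000690598 (0.0436). The cause was not tested.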

How the results depend on the processing

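The ratio of summed levels was 1.83 to 2.07 when 1 library was left out at a time and 1.96 without clone 1 replicate 4 and Btbd7 KO replicate 1, a setting added after seeing the data; the ratio of detected sites was 1.54 to 1.78 and 1.66. Silent sites called higher for the mean numbered 62, against 5 under a stricter filter (10 counts on average) and 29 in a fit of the edited groups alone, where fewer sites were tested; they numbered 48 to 63 over the 16 fits without 1 library and 46 without both. Those called lower numbered 2, against 6 with no filter, 0 in each of those smaller fits, 1 in DESeq2, 1 to 2 without 1 library and 1 without both. In clones 1, 2 and 3 the higher sites numbered 5, 5 and 5 with the stricter filter, 28, 29 and 24 in the edited groups alone, and 45 to 56, 40 to 57 and 30 to 50 without 1 library, the 30 without Btbd7 KO replicate 2. Sites that differed among clones numbered 5, against 0 with the stricter filter, 1 in the edited groups alone, 1 in a fit of the 3 clones, 2 without both libraries and 0 to 6 without 1. All CTCF sites called lower rose from 348 to 836 with scaling within the table. The held-out wild-type share was 1.97% on average and 2.53% for replicate 2. Replicate numbers did not pair libraries (mean correlation 0.00329 over 36 pairs); with the replicate block 59 silent sites were higher, 2 lower, and 3 differed among clones. Of 388 values of 17 named sites, 387 kept their direction and side of the threshold. ENSMUSR00000621849 did not in DESeq2 (adjusted p = 0.389). A site gave no value in a setting where it failed the filter. Many of the sites were picked by their calls, which favours such stability.

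With 76082 sites at 0 throughout and 7064 at 1 count in all, depth limits single sites: 0 counts in wild type allow up to 0.0625 CPM. Silent in wild type therefore means below that level at this depth.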
